A study of Homo sapiens with 38 samples.

Results

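The abundant tRNA entries are the features typed as tRNA in the deposited count table whose counts, summed over all 38 libraries, reached 100000. Members were thus chosen by raw counts pooled over every group. They number 146 of 558 tRNA entries and of 90127 features, and they held 93.6% of all tRNA counts. The rule used the summed counts themselves, so abundance is not a result here. The 3 members just inside the threshold had 108000, 104020 and 102302 counts, and the 3 entries just outside it had 99559, 96903 and 96211. The rule looked at no contrast between groups, but a member can have passed through the group where it is high: 24 of the 146 would lie below 100000 without their largest group, and for 99 members that largest group was KG1a cell rPAL. The 24 rested on KG1a cell rPAL (16 entries, among them 111, 132 and 137), on HL60 cell rPAL (5, among them 139, 143 and 146), on HL60 cell total RNA (entries 136 and 140) and on KG1a cell total RNA (entry 138). In a comparison with the group it rests on, such an entry is given by its values alone. For each comparison, the count of calls by share is repeated for the members that reach 100000 on the groups outside it. For rPAL against total RNA in sEV of either line, all 146 do so, and the count is not given again. Below, entries are numbered by falling summed count, which ran to 6818513 for entry 1 with a median of 331235. The measure is each entry's share of its library's tRNA counts, so that shifts among tRNA entries are seen apart from the share of the tRNA class.

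tRNAs carry amino acids to the ribosome and read codons through their anticodon. They are made by RNA polymerase III, their 5′ leader is cut by RNase P and their 3′ trailer by ELAC2, and TRNT1 adds the CCA end. They are among the most heavily modified RNAs, occur in many near-identical gene copies, and can be cleaved into fragments, for example by angiogenin under stress. Both whole tRNAs and fragments are found in extracellular vesicles. Glycosylated RNA has been described on cell surfaces, and a modified uridine found in some tRNAs has been described as an attachment site for its glycans.

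KG1a and HL60 are wild-type human acute myeloid leukaemia lines, KG1a a primitive CD34-positive line and HL60 a promyelocytic one. From each line, large extracellular vesicles (lEV), small extracellular vesicles (sEV) and the cells gave a total small RNA library and an rPAL library, in which RNA with sialic acid was oxidised with periodate, tagged with biotin by aldehyde ligation and pulled down. The 12 groups hold 3 libraries each, except KG1a cell rPAL and KG1a cell total RNA with 4 each. Cells were grown with 10% serum and vesicles came from cells kept without serum for 2 days, so in every comparison of vesicles with cells the source and the serum cannot be told apart. Whether replicates came from separate cultures is not stated, and p-values speak only of the scatter among these libraries.

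Library totals were 2380745 to 15532758 counts, of which tRNA made 181848 to 11962780. The members' part of the tRNA counts was 83.2% to 98.4%, and 36 libraries had a count for every member. CD34 had 3 to 480 counts per KG1a group and 0 to 4 per HL60 group, and MPO had 82 to 238 counts per HL60 group and 0 to 32 per KG1a group. The low CD34 value in KG1a was that of sEV rPAL, with 3 counts beside 480 in sEV total RNA. The same group had the 32 MPO counts, so its markers did not follow its line, and the cause was not tested. Other promyelocytic markers gave few counts: AZU1 at most 15 and PRTN3 at most 7 per group. ELANE had 0 counts in HL60 cells and lEV, and 7 and 19 in HL60 sEV rPAL and total RNA. No member kept a fixed ratio to any of the 22 mitochondrial tRNA genes, the closest having a standard deviation of the log2 count ratio of 1.19 over the libraries. The entries carry RNAcentral identifiers, which the files and references used here do not pair with an amino acid, anticodon, gene or sequence. Neither a cytosolic origin nor a difference between whole tRNA and fragments can therefore be read from them, and shares compare an entry between groups, not entries per length.

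Many entries moved as one. Entries were put in a set where every pair kept a standard deviation of the log2 count ratio of at most 0.2 over all 38 libraries. The 146 members formed 108 sets, of which 20 held 2 or more entries and 58 members together, with 42.9% of the members' counts. Entries 2 and 3 differed least, with a standard deviation of 0.012, followed by entries 7 and 8 with 0.020 and by entries 16 to 20 with at most 0.035. The largest set was entries 58 to 66, with 9 members. Near-identical copies to which reads were assigned together would give such ratios, so members of a set are uncertain as separate entries. For each comparison, the main count of calls by share is therefore given with counts of sets. No member kept such a ratio to any of 869 other features with at least 5000 counts.

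Members varied widely across groups. Between its highest and its lowest group mean, a member's share differed 17.8-fold in the median, least for entry 124 (3.51-fold) and most for entry 146 (234-fold), and 105 of 146 members differed by more than 10-fold. Entry 146 was a member only through HL60 cell rPAL, its highest group, with 50766 counts in the others. Its range is therefore favoured by the rule, and entry 79, which does not rest on 1 group, differed 202-fold. The highest group mean fell in HL60 cell rPAL for 48 members, in KG1a cell rPAL for 21, in KG1a cell total RNA for 20, in HL60 cell total RNA for 11 and in a vesicle group for the others. These counts include members that passed the threshold only through the group where they are high. The spread of a share among replicates, as a coefficient of variation in the median over members, was 15.0% to 23.5% in the 4 cell groups and 31.6% to 49.2% in the 8 vesicle groups. In percentage points, the widest 95% Wilson interval of any share was 24.48% to 24.84%, for entry 3 in HL60 sEV rPAL replicate 2, and covers counting error only. It belongs to an abundant entry, and relative to the share counting error is larger for scarce ones. In HL60 sEV rPAL replicate 3 and in KG1a sEV rPAL replicate 3, 2 members each had no count.

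The tRNA pool of vesicle total RNA was concentrated in few entries. An effective number of entries, the inverse of the sum of squared shares, was 14.6 ± 0.76 in HL60 lEV total RNA and 23.7 ± 3.16 in HL60 sEV total RNA, against 50.9 ± 7.80 in HL60 cell total RNA (SD, n = 3 each). In KG1a it was 22.3 ± 5.89 in lEV total RNA and 28.2 ± 11.5 in sEV total RNA (SD, n = 3 each), against 64.9 ± 10.7 in cell total RNA (SD, n = 4). These values do not overlap between vesicles and cells of the same line. Among rPAL libraries, 2 stood apart, HL60 sEV rPAL replicate 2 and KG1a sEV rPAL replicate 3, which had the fewest tRNA counts of all (216898 and 181848) and effective numbers of 7.93 and 13.3. Counts and named entries in sEV rPAL are given with and without them.

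**Figure D1:**
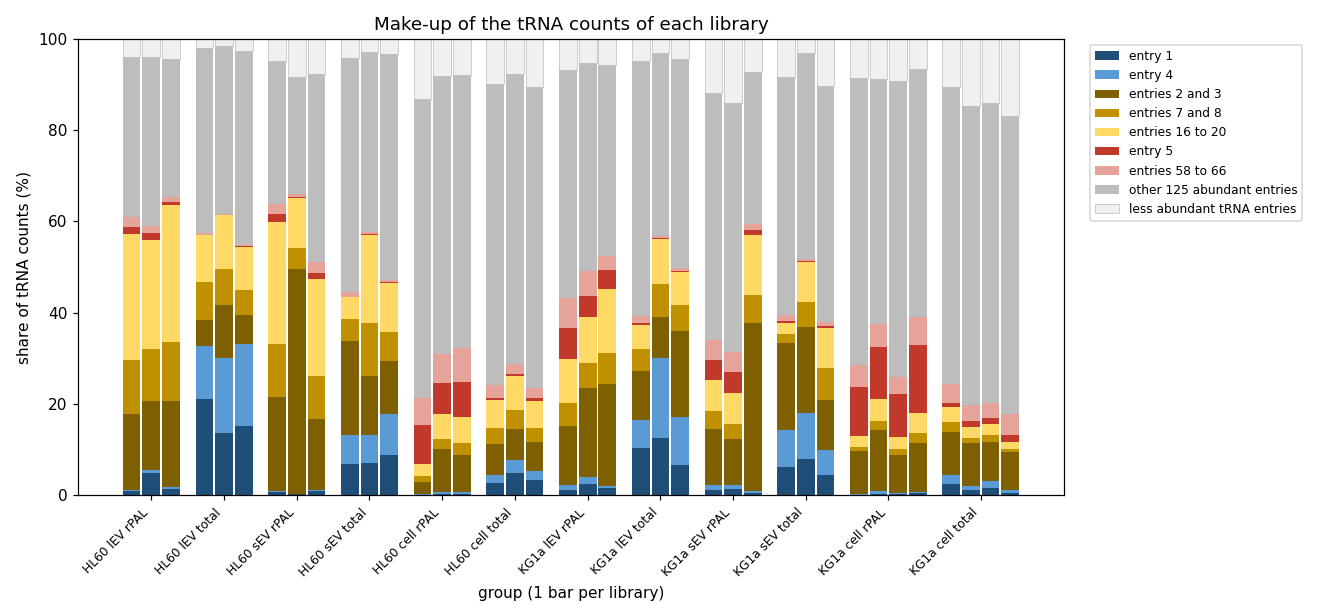
Make-up of the tRNA counts of each of the 38 libraries (1 bar each), in percent of that library's tRNA counts, with the leading entries and fixed-ratio sets in colour, the other abundant entries in grey and the less abundant tRNA entries in white. Entries 1 and 4 (blue) together average 31.9% in HL60 lEV total RNA, and entry 5 (red) is widest in the rPAL libraries of cells, where it averages 11.7% in KG1a.

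A change in a dominant entry moves every other share, since shares within a library sum to 100. Each count of calls is therefore given on 2 scales: by share, and after a further TMM factor (trimmed mean of M-values) computed over the tRNA entries. A call is an adjusted p under 0.05 by edgeR's quasi-likelihood test with Benjamini-Hochberg adjustment over all tRNA entries tested in the comparison, in which all 146 members were always included.

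Entry 5 (URS0000145C5E) took up much of the rPAL tRNA pool. In HL60 cells it held 8.50%, 6.81% and 7.63% of tRNA counts in rPAL libraries, against 0.429%, 0.408% and 0.519% in total RNA. In KG1a cells it held 10.8%, 11.4%, 9.58% and 15.0% in rPAL libraries, against 0.791%, 1.44%, 1.24% and 1.51% in total RNA. Every rPAL library of cells lay above every total RNA library of the same line. The log2 fold change was 4.08 ± 0.39 (SE; edgeR adjusted p = 1.5e-09) in HL60 cells and 3.23 ± 0.30 (SE; edgeR adjusted p = 4.4e-07) in KG1a cells.

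The same entry was called higher by share in rPAL in all 4 kinds of vesicle. In HL60 lEV it held 1.58%, 1.51% and 0.803% in rPAL libraries, against 0.0818%, 0.0435% and 0.143% in total RNA. In KG1a lEV it held 6.74%, 4.62% and 4.05% in rPAL libraries, against 0.464%, 0.323% and 0.250% in total RNA. The groups did not overlap in either line. In sEV the shares were 1.59%, 0.345% and 1.42% in HL60 rPAL libraries, against 0.0869%, 0.0886% and 0.121% in HL60 total RNA. KG1a sEV had 4.44%, 4.42% and 1.00% in rPAL libraries, against 0.483%, 0.153% and 0.398% in total RNA. The lowest rPAL values of both lines were those of the 2 libraries that stood apart, and still lay above all total RNA libraries of their line. The log2 fold changes were 3.86 ± 0.49 in HL60 lEV, 3.89 ± 0.58 in KG1a lEV, 3.50 ± 0.64 in HL60 sEV and 3.25 ± 0.73 in KG1a sEV (SE), with edgeR adjusted p-values of 1.7e-04, 1.7e-06, 0.0018 and 0.0025. With the TMM factor the fold changes in sEV missed the threshold, at adjusted p = 0.051 in both lines. Without the library that stood apart the fold change was 3.93 ± 0.52 in HL60 sEV and 3.68 ± 0.65 in KG1a sEV (SE), and in KG1a sEV the entry was called in 4 of 6 fits with 1 library left out. As a level among all features, with TMM over the whole table, entry 5 was not called in HL60 lEV (log2 difference 0.98, edgeR adjusted p = 0.27). Nor was it called in HL60 sEV (1.47, edgeR adjusted p = 0.31). It was called higher in KG1a lEV and sEV, at 4.52 and 3.17 (edgeR adjusted p = 0.031 and 0.040).

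Entries 1 (URS000038803E) and 4 (URS000070B37B) went the other way. In HL60 lEV, entry 1 held 0.989%, 4.83% and 1.42% of tRNA counts in rPAL libraries, against 21.0%, 13.8% and 15.2% in total RNA. For entry 4 the shares were 0.264%, 0.674% and 0.341% in rPAL libraries, against 11.6%, 16.2% and 17.9% in total RNA. The groups were separated by a wide gap for both. The log2 fold change was -2.79 ± 0.50 for entry 1 and -5.16 ± 0.40 for entry 4 (SE), with edgeR adjusted p-values of 0.0016 and 4.6e-06.

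In KG1a lEV, entry 4 held 1.07%, 1.69% and 0.358% in rPAL libraries, against 6.30%, 17.6% and 10.7% in total RNA. In HL60 cells, entry 1 held 0.168%, 0.370% and 0.391% in rPAL libraries, against 2.80%, 4.86% and 3.38% in total RNA. In KG1a cells, entry 1 held 0.139%, 0.397%, 0.240% and 0.413% in rPAL libraries, against 2.48%, 1.13%, 1.61% and 0.583% in total RNA. None of these groups overlapped, although the lowest KG1a total RNA library came close to the highest rPAL one. The log2 fold changes were -3.47 ± 0.58 for entry 4 in KG1a lEV, -3.57 ± 0.38 for entry 1 in HL60 cells and -2.29 ± 0.43 for entry 1 in KG1a cells (SE), with edgeR adjusted p-values of 3.6e-05, 7.5e-09 and 3.6e-04.

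Entries 1 and 4 were the only members called lower in rPAL in all 6 sources, on both scales, although no call in KG1a sEV survived leaving out total RNA replicate 2 or 3 of that source. This concerns their share of tRNA. As a level among all features of the library, with TMM over the whole table, entry 1 had a log2 difference of 0.32 in KG1a cells (edgeR adjusted p = 0.81) and -2.13 in HL60 cells (edgeR adjusted p = 0.0028), beside a tRNA class that made 57.0% ± 20.8 of KG1a cell rPAL libraries against 9.99% ± 2.14 of KG1a cell total RNA (SD, n = 4 each). In HL60 cells the class made 67.0% ± 6.31 of rPAL libraries against 20.2% ± 0.51 of total RNA (SD, n = 3 each).

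**Figure D2:**
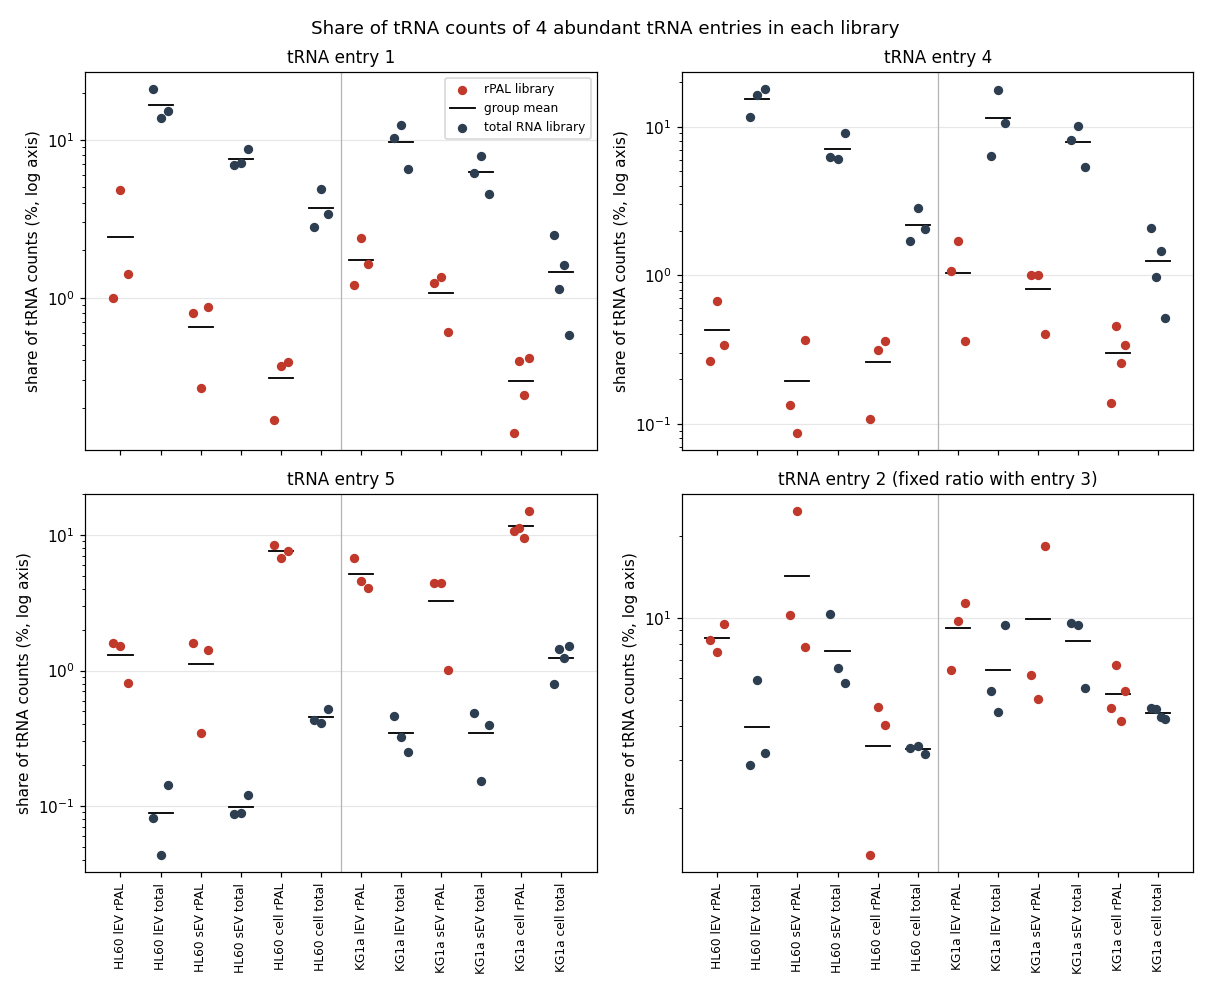
Share of tRNA counts (log axis, percent) of entries 1, 4, 5 and 2 in every library, by group, with rPAL libraries in red, total RNA libraries in dark blue and the group mean as a bar. Entries 1 and 4 lie lower in rPAL than in total RNA in all 6 sources and entry 5 higher, while entry 2 shows overlapping groups in most sources.

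Entries 2 (URS00004F0321) and 3, the pair with the steadiest ratio, were not called in rPAL against total RNA of cells in either line. Entry 2 held 1.35%, 4.72% and 4.04% in HL60 cell rPAL libraries, against 3.33%, 3.38% and 3.16% in HL60 cell total RNA. The rPAL values lay on both sides of the total RNA values. In HL60 lEV entry 2 held 8.28%, 7.51% and 9.49% in rPAL libraries, against 2.88%, 5.90% and 3.19% in total RNA, a log2 fold change of 1.08 ± 0.30 (SE; edgeR adjusted p = 0.011) that turned to -0.81 with the TMM factor (adjusted p = 0.32). Together the pair made 49.3% of tRNA counts in HL60 sEV rPAL replicate 2 and 36.7% in KG1a sEV rPAL replicate 3. Entry 6 was called lower in rPAL in both kinds of cells and of lEV: in HL60 cells it held 0.350%, 0.766% and 1.13% in rPAL libraries, against 3.65%, 2.79% and 2.60% in total RNA.

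In rPAL against total RNA of HL60 cells, 114 of 146 members were called, 80 higher and 34 lower, or 55 and 30 sets. With the TMM factor the split was 75 higher and 41 lower. Among the 127 members that reach 100000 outside these groups, 70 were higher and 29 lower. Of all tRNA entries tested there, 72.5% were called, 47.7% higher and 24.8% lower. The median log2 fold change was 1.30 over the members and 0.63 over all tRNA entries.

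The members with the largest differences were scarce in total RNA. Entry 105 held 0.394%, 0.339% and 0.385% of tRNA counts in HL60 cell rPAL libraries, against 0.0112%, 0.00980% and 0.0134% in total RNA (log2 fold change 5.02 ± 0.31, SE; edgeR adjusted p = 5.9e-13). Entry 111 followed with 0.244%, 0.219% and 0.166% in rPAL libraries, against 0.00819%, 0.00604% and 0.00556% in total RNA (log2 fold change 4.99 ± 0.35, SE). Entry 139, which reaches 61121 counts without HL60 cell rPAL and so was a member only through that group, had a log2 fold change of 4.95 ± 0.35 (SE). The groups of all 3 lay more than 10-fold apart in their means. At the other end stood entries 1, 41 and 4, and entry 41 held 0.333%, 0.258% and 0.325% in rPAL libraries, against 2.48%, 3.06% and 2.86% in total RNA (log2 fold change -3.20 ± 0.32, SE; edgeR adjusted p = 2.4e-09).

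In KG1a cells 83 of 146 members were called in rPAL, 50 higher and 33 lower (41 and 31 sets), and with the TMM factor 75 were higher and 26 lower. Among the 117 members that reach 100000 outside these groups, 37 were higher and 27 lower. Over the whole set of tRNA entries tested, 60.9% were called, 21.7% higher and 39.1% lower. In the median, the log2 fold change was 0.33 over the members and -0.27 over all tRNA entries. In this group rPAL replicates 2 and 3 had a lower tRNA class share (38.7% and 39.6%) than replicates 1 and 4 (72.9% and 77.0%). Without both, 82 members were called, 48 higher and 34 lower.

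Entry 111 had the highest fold change in KG1a cells, with 0.376%, 0.308%, 0.280% and 0.289% in rPAL libraries, against 0.0230%, 0.0266%, 0.0319% and 0.0184% in total RNA (log2 fold change 3.65 ± 0.25, SE). It was a member only through this rPAL group, with 79964 counts in the others, so the difference is given without a test. Entries 86 and 88 came next, both of a fixed-ratio set with entries 82, 84 and 89. That set together made 2.53% ± 0.38 of tRNA counts in KG1a cell rPAL, against 0.233% ± 0.044 in KG1a cell total RNA (SD, n = 4 each), and 1.42% ± 0.28 in HL60 cell rPAL, against 0.0836% ± 0.016 in HL60 cell total RNA (SD, n = 3 each). All 5 of its entries were called higher in rPAL in all 6 sources by share.

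The lowest fold changes in KG1a cells were those of entries 138, 112 and 40. Entry 138 held 0.0459%, 0.103%, 0.118% and 0.0363% in rPAL libraries, against 0.524%, 0.763%, 0.784% and 1.27% in total RNA (log2 fold change -3.47 ± 0.41, SE). It was a member only through KG1a cell total RNA, with 82514 counts in the other groups, so its differences from that group are given without a test. Entry 112 had a log2 fold change of -3.0 ± 0.40 and entry 40 one of -2.94 ± 0.32 (SE). The rPAL and total RNA groups of all 3 were free of overlap.

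In lEV many calls depended on the scale. In HL60 lEV 103 of 146 members were called in rPAL, 75 higher and 28 lower (48 and 22 sets), but with the TMM factor 14 were higher and 48 lower. In KG1a lEV 73 were called, 58 higher and 15 lower (38 and 12 sets), and with the TMM factor 28 were higher and 48 lower. Of all tRNA entries tested, 51.2% were called in HL60 (43.5% higher, 7.69% lower) and 43.8% in KG1a (34.8% higher, 8.93% lower). On both scales, 14 members were higher and 28 lower in HL60 lEV, and 28 higher and 15 lower in KG1a lEV. The sign of the fold change turned with the TMM factor for 38 members in HL60 lEV and for 25 in KG1a lEV. Reaching 100000 outside the groups compared were 144 members in HL60 lEV, with 75 higher and 28 lower, and 140 in KG1a lEV, with 55 higher and 15 lower. The median log2 fold change by share was 1.30 over members and 1.80 over all tRNA entries in HL60 lEV, and 0.78 and 0.90 in KG1a lEV.

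Among the members called on both scales in lEV, entry 87 rose most in both lines. It held 0.149%, 0.127% and 0.0493% in HL60 lEV rPAL libraries, against 0.00610%, 0.00133% and 0.00548% in total RNA (log2 fold change 4.66 ± 0.74, SE; edgeR adjusted p = 5.8e-04). In KG1a lEV it held 0.527%, 0.441% and 0.317% in rPAL libraries, against 0.0223%, 0.00487% and 0.00599% in total RNA (log2 fold change 5.27 ± 0.68, SE; edgeR adjusted p = 2.7e-07). The groups did not overlap in either line. Entry 105 was second in both lines, at 4.17 ± 0.71 in HL60 lEV and 4.35 ± 0.59 in KG1a lEV. Entry 109 came next in HL60 lEV, at 4.09 ± 0.53, and entry 5 in KG1a lEV.

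Next to entry 4, entry 67 was lowest in lEV. It held 0.0541%, 0.0704% and 0.0389% in HL60 lEV rPAL libraries, against 0.748%, 0.946% and 0.997% in total RNA (log2 fold change -4.04 ± 0.41, SE; edgeR adjusted p = 3.0e-05), and its log2 fold change in KG1a lEV was -2.79 ± 0.61 (SE). Entry 13 came next in HL60 lEV, with 0.163%, 0.143% and 0.124% in rPAL libraries, against 1.10%, 2.23% and 3.04% in total RNA. All of these rPAL values lay below all total RNA values.

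The entries that filled the HL60 lEV rPAL pool were those of a few sets. Entries 16 to 20 together made 27.1% ± 3.0 of tRNA counts in HL60 lEV rPAL against 10.5% ± 1.24 in HL60 lEV total RNA (SD, n = 3 each), and entries 7 and 8 made 12.1% ± 0.77 against 7.29% ± 1.56. All 7 were called higher by share and none on both scales. In KG1a lEV the summed share of entries 16 to 20 was 11.3% ± 2.41 in rPAL and 7.35% ± 2.27 in total RNA (SD, n = 3 each), and none of the 5 was called.

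In sEV fewer members were called. In HL60 sEV 58 of 146 were called in rPAL, 38 higher and 20 lower (29 and 17 sets), and with the TMM factor 13 were higher and 31 lower. Among all tRNA entries tested, 19.6% were called, 13.6% higher and 6.05% lower. In the median, the log2 fold change by share was 1.04 over members and 1.28 over all tRNA entries. Without rPAL replicate 2, the library that stood apart, 73 members were called.

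Entry 26 rose most in HL60 sEV, with 0.308%, 0.672% and 0.379% in rPAL libraries, against 0.0330%, 0.0178% and 0.0167% in total RNA (log2 fold change 4.33 ± 0.61, SE; edgeR adjusted p = 0.0011). Entries 111 and 24 followed at 3.62 ± 0.74 and 3.60 ± 0.60 (SE). Entry 4 fell most, with 0.134%, 0.0871% and 0.365% in rPAL libraries, against 6.24%, 6.02% and 9.03% in total RNA (log2 fold change -5.18 ± 0.72, SE; edgeR adjusted p = 0.0011). Entries 67 and 51 had log2 fold changes of -4.40 ± 0.62 and -4.15 ± 0.67 (SE), and entry 51 shares a set with entry 53. None of these groups overlapped. Without rPAL replicate 2, the log2 fold changes were 3.93 ± 0.58 for entry 26, 3.65 ± 0.77 for entry 111, 3.91 ± 0.57 for entry 24, -4.83 ± 0.71 for entry 4, -4.23 ± 0.68 for entry 67 and -4.0 ± 0.74 for entry 51 (SE), and all 6 were called, with edgeR adjusted p-values of at most 0.0027.

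In KG1a sEV 39 of 146 members were called in rPAL, 36 higher and 3 lower (26 and 3 sets), and with the TMM factor 29 were higher and 25 lower. Of all tRNA entries tested, 11% were called, 10.1% higher and 0.901% lower. The median log2 fold change was 0.83 over members and 0.69 over all tRNA entries. This count rested on single libraries. It was 0 without total RNA replicate 2 and 0 without total RNA replicate 3, with 53 and 66 members at an unadjusted p under 0.05 by edgeR. It was 18 without total RNA replicate 1, 9 without rPAL replicate 1, 18 without rPAL replicate 2 and 55 without rPAL replicate 3, the library that stood apart. DESeq2 called 67, and with the replicate number as a block edgeR called 13.

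The members highest in KG1a sEV rPAL were entries 105, 26 and 24, with log2 fold changes of 3.38 ± 0.79, 3.27 ± 0.75 and 3.26 ± 0.74 (SE; edgeR adjusted p = 0.0025 each). Entry 105 held 0.363%, 0.314% and 0.0935% in rPAL libraries, against 0.0383%, 0.0139% and 0.0217% in total RNA. The 3 members called lower were entries 4, 1 and 11. Entry 11 held 1.53%, 1.24% and 1.01% in rPAL libraries, against 2.05%, 8.52% and 5.95% in total RNA (log2 fold change -2.13 ± 0.69, SE; edgeR adjusted p = 0.031). Entry 4 had a log2 fold change of -3.29 ± 0.72 (SE). No group overlapped here, yet with 1 library left out at a time entries 4, 26 and 24 were called in 4 of 6 fits, entry 105 in 3 of 6, and entries 1 and 11 in 2 of 6. Without rPAL replicate 3, the log2 fold changes were 3.78 ± 0.74 for entry 105, 3.65 ± 0.67 for entry 26, 3.59 ± 0.67 for entry 24, -2.97 ± 0.70 for entry 4, -2.26 ± 0.68 for entry 1 and -1.99 ± 0.67 for entry 11 (SE), with edgeR adjusted p-values of at most 0.021.

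Over the 6 sources, 19 members (13 sets) were called higher in rPAL in all 6 by share, and 2 were called lower in all 6. The 19 include entry 111, which became a member only through KG1a cell rPAL. Its call in KG1a cells is therefore not a test, and for it the count rests on the other sources. Of the tRNA entries tested in all 6, 4.79% were called higher and 0.504% lower in every source, and none of them lay outside the members. Members were chosen by counts that include the rPAL libraries, and entries with fewer counts are harder to call. That none lay outside is therefore not a trait of the members. The counts over all 6 sources need the calls in KG1a sEV, of which none was left without total RNA replicate 2 or without total RNA replicate 3. In the 5 sources other than KG1a sEV, 22 members were called higher and 5 lower in all, against 5.79% and 1.26% of the tRNA entries tested. Entry 111 is among these 22 too, with the same limit. Entry 105 was the only one called higher in all 6 on both scales, and in KG1a sEV it was called in 3 of 6 fits with 1 library left out. The log2 fold change was above 0 in all 6 sources for 65 members and below 0 in all 6 for 25. The 65 include entries 102, 111, 116, 121, 123, 133, 139, 143, 145 and 146, which passed the threshold only through a cell rPAL group. For these the sign in cells of that line is favoured by the rule. No such count over all tRNA entries is given here, so neither count is read as a trait of the members. Another 16 members were called in both directions in different sources, and entries 42, 100 and 135 were called in none. Between the lines, which share no libraries, the members' log2 fold changes had a Pearson correlation of 0.85 in cells, 0.89 in lEV and 0.82 in sEV over 146 members, and 0.88, 0.89 and 0.82 with 1 member per set (108 sets). These are descriptions across entries, which are not independent replicates and share the libraries' composition.

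**Figure D3:**
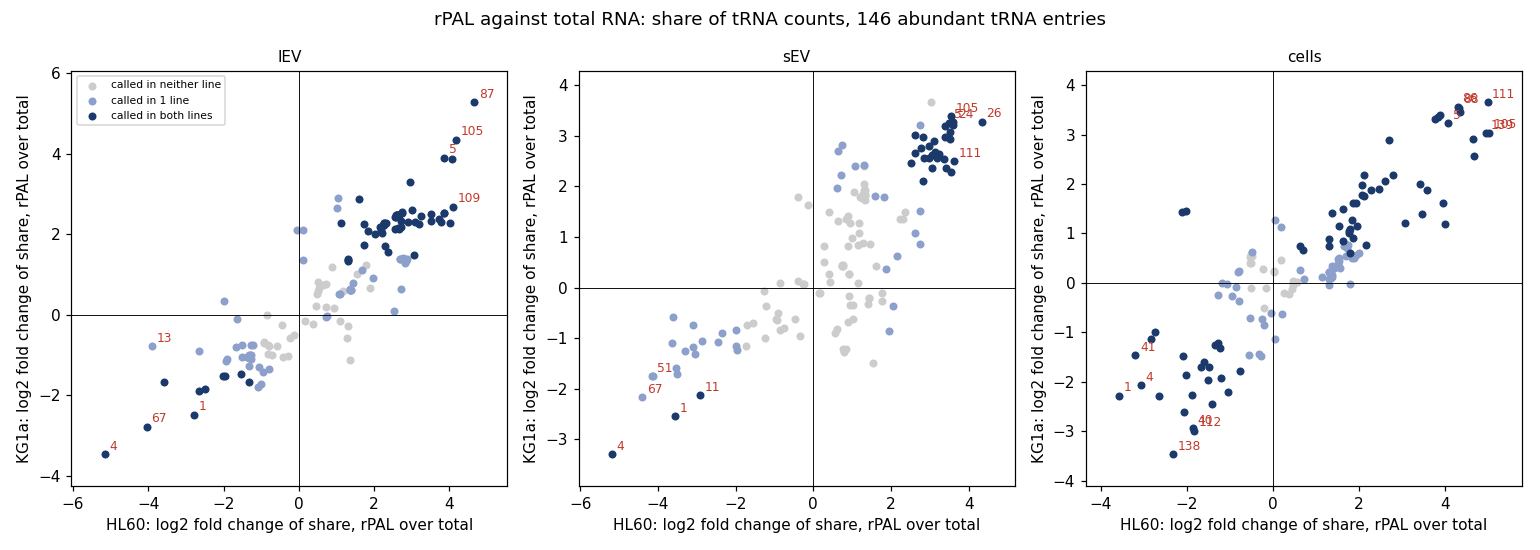
Log2 fold change of the share of tRNA counts, rPAL over total RNA, in HL60 (horizontal axis) and KG1a (vertical axis) for the 146 members in lEV, sEV and cells, coloured by whether the edgeR adjusted p was under 0.05 in neither, 1 or both lines. Entries 1 and 4 lie at the lower left in every panel and entries 5 and 105 at the upper right.

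By share, fewer members were higher than lower in vesicle total RNA against cell total RNA, while the most abundant entry was among those higher. With the TMM factor more members were higher than lower in all 4 comparisons. The lEV and sEV comparisons of a line share its cell libraries. Entry 4 held 11.6%, 16.2% and 17.9% of tRNA counts in lEV and 6.24%, 6.02% and 9.03% in sEV of HL60, against 1.70%, 2.84% and 2.03% in HL60 cells. In KG1a it held 6.30%, 17.6% and 10.7% in lEV and 8.13%, 10.1% and 5.39% in sEV, against 2.07%, 0.974%, 1.45% and 0.518% in cells. Every vesicle library lay above every cell library. The log2 fold change of entry 4 in lEV was 2.80 ± 0.26 in HL60 and 3.20 ± 0.47 in KG1a (SE), with edgeR adjusted p-values of 2.4e-05 and 3.4e-06.

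Entry 1 changed alongside it. In lEV its log2 fold change against cells was 2.18 ± 0.25 in HL60 and 2.75 ± 0.45 in KG1a (SE), with edgeR adjusted p-values of 5.3e-05 and 1.4e-05. Together entries 1 and 4, paired here after their values were seen, averaged 31.9% ± 1.68 in lEV and 14.7% ± 2.70 in sEV of HL60, against 5.87% ± 1.65 in HL60 cells (SD, n = 3 each). In KG1a they made 21.3% ± 7.60 in lEV and 14.1% ± 4.05 in sEV (SD, n = 3 each), against 2.70% ± 1.47 in cells (SD, n = 4).

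Entry 11 was prominent in sEV. It held 3.64%, 4.65% and 5.55% in HL60 sEV, against 0.706%, 0.858% and 0.677% in HL60 cells (log2 fold change 2.63 ± 0.37, SE; edgeR adjusted p = 8.3e-06). In KG1a sEV it held 2.05%, 8.52% and 5.95%, against 0.914%, 0.414%, 0.522% and 0.232% in KG1a cells (log2 fold change 3.40 ± 0.53, SE; edgeR adjusted p = 1.0e-05). Both comparisons were free of overlap. Entry 9 reached 3.51%, 8.24% and 4.02% in KG1a sEV, against 0.842%, 0.446%, 0.600% and 0.281% in KG1a cells, and entries 53 and 51 had log2 fold changes of 2.32 ± 0.41 and 2.28 ± 0.41 in HL60 sEV (SE).

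At the low end in vesicles stood entry 138. In HL60 its shares were 0.0214%, 0.0116% and 0.0162% in lEV and 0.0286%, 0.0217% and 0.0158% in sEV, against 0.468%, 0.345% and 0.428% in cells. In KG1a it held 0.0221%, 0.0137% and 0.0218% in lEV and 0.0564%, 0.00917% and 0.0358% in sEV, against 0.524%, 0.763%, 0.784% and 1.27% in cells. Every vesicle library lay several-fold below every cell library. The log2 fold change was -4.65 ± 0.43 in HL60 lEV, -5.44 ± 0.48 in KG1a lEV, -4.23 ± 0.44 in HL60 sEV and -4.63 ± 0.62 in KG1a sEV (SE), with edgeR adjusted p-values of 2.4e-05 in HL60 lEV and 6.2e-07 in HL60 sEV. The KG1a values have no test, since the entry became a member through KG1a cell total RNA. The next lowest were entries 14 and 140 in HL60 lEV (-4.31 ± 0.84 and -4.29 ± 0.44, where entry 140 rests on HL60 cell total RNA), entries 113 and 87 in KG1a lEV (-3.72 ± 0.44 and -3.52 ± 0.52), entries 24 and 25 in HL60 sEV (-4.08 ± 0.46 and -4.08 ± 0.47) and entries 26 and 25 in KG1a sEV (-4.01 ± 0.59 and -3.95 ± 0.59). Entry 5 was also called lower by share in all 4 vesicle comparisons, with log2 fold changes of -2.34 ± 0.45 in HL60 lEV and -1.85 ± 0.40 in KG1a lEV, but with the TMM factor it was not called in lEV of either line.

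In HL60 lEV against cells 104 of 146 members were called, 26 higher and 78 lower (16 and 60 sets), and with the TMM factor 73 were higher and 33 lower. In KG1a lEV 97 were called, 25 higher and 72 lower (15 and 54 sets), and with the TMM factor 71 higher and 22 lower. For comparison, of all tRNA entries tested, 70.4% were called in HL60 (6.55% higher, 63.9% lower) and 72% in KG1a (8.37% higher, 63.7% lower). In the median, the log2 fold change by share was -1.15 over members and -2.06 over all tRNA entries in HL60 lEV, and -0.82 and -1.63 in KG1a lEV. On both scales, 26 members were higher and 33 lower in HL60 lEV, and 25 higher and 22 lower in KG1a lEV. Among members that reach 100000 outside the groups compared, 25 were higher and 71 lower of 136 in HL60 lEV, and 25 higher and 68 lower of 142 in KG1a lEV.

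In HL60 sEV against cells 93 of 146 members were called, 19 higher and 74 lower (16 and 56 sets), and with the TMM factor 48 higher and 43 lower. In KG1a sEV 77 were called, 23 higher and 54 lower (14 and 37 sets), and with the TMM factor 55 higher and 47 lower. With the replicate number as a block, 42 were called in KG1a sEV. Among members that reach 100000 outside the groups compared, 19 were higher and 68 lower of 137 in HL60 sEV, and 23 higher and 52 lower of 144 in KG1a sEV. Of all tRNA entries tested, 55.9% were called in HL60 (11% higher, 44.8% lower) and 57.8% in KG1a (20.6% higher, 37.2% lower). The median log2 fold change by share was -0.92 over members and -0.84 over all tRNA entries in HL60 sEV, and -0.42 and -0.61 in KG1a sEV.

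Both lines gave the same call in lEV for 18 members (10 sets) that were higher, all of them on both scales: entries 1, 4, 7, 8, 11, 16 to 20, 44, 51, 53, 67, 124, 126, 132 and 137. Another 63 members (47 sets) were lower in lEV of both lines by share, of which 15 were so on both scales. Of the tRNA entries tested in both lines, 4.55% were higher and 55.0% lower in lEV of both. In sEV 11 members (9 sets) were higher in both lines, all on both scales, and 53 (37 sets) were lower, 35 of them on both scales, beside 6.61% higher and 31.7% lower of the tRNA entries tested in both lines. Entries 136, 138 and 140 are among those lower in both lines, in lEV and in sEV and on both scales. They became members only through cell total RNA, of HL60 for entries 136 and 140 and of KG1a for entry 138. Their calls in that line are therefore not a test. Entries 34 and 35 were the only members called in opposite directions in the lines, in lEV and in sEV. The correlation of the members' log2 fold changes between the lines was 0.82 in lEV and 0.83 in sEV over 146 members, given as a description.

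**Figure D4:**
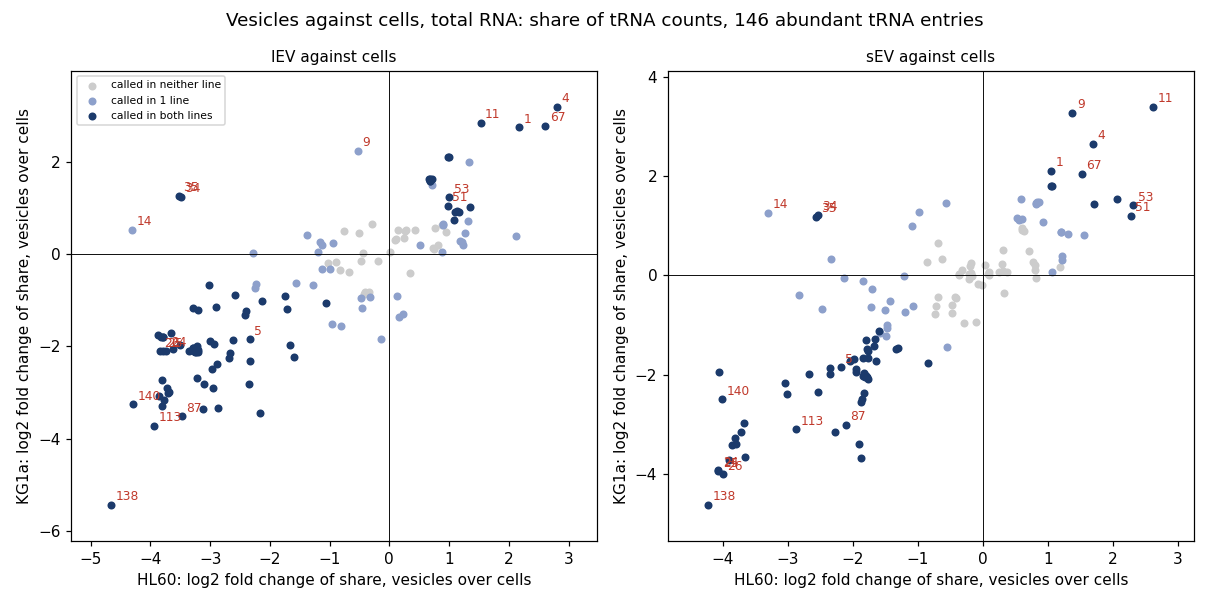
Log2 fold change of the share of tRNA counts, vesicles over cells in total RNA, in HL60 (horizontal axis) and KG1a (vertical axis) for the 146 members in lEV and sEV, coloured by whether the edgeR adjusted p was under 0.05 in neither, 1 or both lines. Entries 1, 4, 11 and 67 lie at the upper right and entry 138 at the lower left of both panels, while entries 34 and 35 lie at the upper left.

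The lines differed most in entries 34 and 35, which share a set. In total RNA of cells, entry 35 held 2.47%, 3.48% and 3.29% of tRNA counts in HL60, against 0.290%, 0.261%, 0.301% and 0.195% in KG1a. Its log2 fold change, HL60 over KG1a, was 3.56 ± 0.24 (SE; edgeR adjusted p = 6.5e-07). The same entry held 0.993%, 0.565% and 0.564% in HL60 cell rPAL libraries, and 0.798%, 0.682%, 0.597% and 0.768% in KG1a cell rPAL libraries, which overlap. The pair was thus lower in rPAL than in total RNA in HL60 cells and higher in KG1a cells, and the difference between these effects, HL60 minus KG1a, was -3.56 ± 0.39 for entry 35 and -3.49 ± 0.38 for entry 34 on the log2 scale (SE; edgeR adjusted p = 1.2e-06 for both).

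Entry 9 came next in HL60 cells, with 2.47%, 3.27% and 2.91%, against 0.842%, 0.446%, 0.600% and 0.281% in KG1a cells (log2 fold change 2.41 ± 0.33, SE; edgeR adjusted p = 3.9e-04). Entry 92 was lowest in HL60 cells, with 0.0132%, 0.0102% and 0.0213%, against 0.0658%, 0.126%, 0.116% and 0.104% in KG1a cells (log2 fold change -2.79 ± 0.34, SE; edgeR adjusted p = 1.7e-04). Entry 27 held 0.0969%, 0.0862% and 0.149% in HL60 cells, against 0.453%, 0.757%, 0.683% and 0.814% in KG1a cells. These groups did not overlap. Of 146 members 90 were called, 26 higher and 64 lower in HL60 (17 and 42 sets), and with the TMM factor 58 were higher and 21 lower. Among the 136 members that reach 100000 outside these groups, 26 were higher and 62 lower. Over the whole set of tRNA entries tested, 64.8% were called, 9.29% higher and 55.5% lower. In the median, the log2 fold change was -0.44 over members and -0.87 over all tRNA entries.

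The rPAL effect itself was compared between lines and between sources with interaction contrasts. For HL60 cells against KG1a cells, 57 of 146 members differed, 46 with a higher and 11 with a lower value in HL60 (31 and 7 sets), and with the TMM factor 2 were higher and 16 lower. Of all tRNA entries tested 33.6% differed, 31.1% higher and 2.46% lower. Without HL60 cell total RNA replicate 2, 17 members differed. Only 79 members reach 100000 outside these 4 groups, of which 23 were higher and 8 lower. Entries 92 and 34 were among the members called on both scales.

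For HL60 lEV against HL60 cells, 67 members differed, 35 higher and 32 lower, and with the TMM factor 6 higher and 53 lower (35.2% of all tRNA entries tested: 26.8% higher, 8.49% lower). Among the 114 members that reach the threshold outside the groups of this contrast, 26 were higher and 21 lower. For HL60 sEV against HL60 cells, 27 differed, 11 higher and 16 lower, and with the TMM factor 8 higher and 25 lower (17.4% of all tRNA entries: 11% higher, 6.42% lower). Here 118 members reach the threshold outside the groups of the contrast, of which only 4 were higher and 13 lower. Most of the higher calls in sEV thus came from members that need these groups to pass. The count of 27 was 10 without HL60 cell total RNA replicate 1, 15 without replicate 3 of that group, 15 and 16 without HL60 cell rPAL replicates 2 and 3, and 42 without HL60 sEV rPAL replicate 2. Entry 138 was highest in both, since its rPAL libraries lay below total RNA in HL60 cells (0.103%, 0.0787% and 0.0683%, against 0.468%, 0.345% and 0.428%) and above it in HL60 sEV (0.0786%, 0.0687% and 0.0555%, against 0.0286%, 0.0217% and 0.0158%). Measured as levels among all features, its difference turned: it was -0.81 in lEV and -0.19 in sEV on the log2 scale, where shares gave 3.20 and 3.93.

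As levels among all features, with library totals and TMM over the whole table, the members' calls in rPAL were as follows. In HL60 cells 112 of 146 were higher and 8 lower in rPAL, and in KG1a cells 116 were higher and 0 lower, while 20.6% and 8.89% of all features were higher and 18% and 9.86% lower. The 146 include entries that passed only through a cell rPAL group, and these counts were not repeated without them. Nor was the direction particular to members. Of the less abundant tRNA entries, 202 of 317 tested were higher and 9 lower in HL60 cells. In KG1a cells 134 of 320 were higher and 5 lower. In HL60 lEV 0 members were higher and 73 lower, beside 12.3% and 18.9% of all features, and in KG1a lEV 5 members were higher and 0 lower, beside 3.16% and 7.07%. The tRNA class made 78.4%, 53.5% and 16.9% of the KG1a lEV rPAL libraries, and replicate 3 had only 484757 tRNA counts. With that spread, few calls in KG1a lEV do not show a lack of change. In sEV 1 member was higher and 31 lower in HL60 (2.51% and 16.3% of all features), and 1 higher and 3 lower in KG1a (0.48% and 6.13%). In KG1a sEV the tRNA class made 16.8%, 16.2% and 7.51% of rPAL libraries, against 11.4%, 29.3% and 10.4% of total RNA libraries. These shares overlap, and the higher mean of total RNA came from replicate 2. The members' median log2 fold change there was 0.62, beside -0.42 over all features. Of the 22 mitochondrial tRNA genes, 21 were tested in each kind of cells, and rPAL gave 3 higher and 11 lower in HL60 cells and 5 higher and 5 lower in KG1a cells. The 26 genes of tRNA processing and cleavage, among them ELAC2, TRNT1 and the export receptor XPOT, gave too few reads to follow: XPOT had the most, with 1257 counts over all libraries, and 6 were tested in each kind of cells, with 0 higher and 1 lower in rPAL in both lines.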

How the data were processed

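Small RNA libraries of HL60 and KG1a cells, lEV and sEV were analysed. The authors deposited raw read counts per feature, whole numbers, made with Bowtie2 on GRCh38 (hg38) per the submitters' processing notes. Program versions, how reads were counted, what was done with multiply mapping reads and which annotation release was used are not given in the sources used here. If reads were assigned to near-identical copies, entries of a set are not separate measurements. Each of the 38 columns has 1 labelled sample, and no libraries were identical.

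Counts of every tRNA entry were fitted with edgeR 4.0.16 (R 4.3.3; glmQLFit robust, glmQLFTest, filterByExpr), with the summed tRNA counts as library size and only the groups compared in each fit. Benjamini-Hochberg adjustment ran over all tRNA entries of a comparison, at 0.05. Standard errors were derived from the quasi-likelihood F statistic. Alternatives were a TMM factor, the whole table with TMM, no filter, DESeq2 1.42.0, a replicate block and leaving out each library. Fixed-ratio sets (0.5 added to each count before the ratio) counted once, and leaving out KG1a cell rPAL replicates 2 and 3 together, were chosen after seeing the data. So were the counts over members that reach the threshold outside the groups compared. Python 3.11.15, pandas 2.3.3 and matplotlib 3.10.9 gave the shares and figures. The fit was tested on data simulated for KG1a cells, rPAL against total RNA, with the same dispersion for every entry. There 8.61% of unchanged entries were called when the changed ones shifted the composition by 0.27 on the log2 scale. Vesicle comparisons were not simulated. In HL60 lEV rPAL the members' median log2 fold change was 1.30 by share and -0.50 with the TMM factor.

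Entries named are the 6 with the largest summed count and, per comparison, of the members called without overlap of the groups, the 3 highest and 3 lowest log2 fold changes (for interactions, of those called). Entry 105 in all sources, the sets, entries 42, 100 and 135 and the entries listed as called in both lines were chosen once values were known. The members, lists and tests were chosen with earlier results of these data known.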

Additional observations from a re-analysis of the deposited data

Results flagged for a closer look

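A test for single values far from the rest of their group was possible for the 2 groups of 4 libraries, in 82 combinations of a named entry and a group, and 5 were marked (chance marks about 1 in 20). Entry 13 held 6.47% of tRNA counts in KG1a cell total RNA replicate 1, against 3.54% to 3.80% in the other 3. In the same library entry 53 held 0.316%, against 0.226% to 0.233%, and entry 139 held 0.00678%, against 0.0200% to 0.0227%. In KG1a cell rPAL replicate 3, entries 86 and 88, which share a set, held 0.393% and 0.392%, against 0.534% to 0.545% and 0.530% to 0.546% in the others.

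The rPAL effect was marked as differing by an edgeR interaction test in 18 named cases, given as differences of log2 fold changes. Among these, entries 143 and 140 are given by their values alone, since each became a member through a group inside its contrast. Between HL60 and KG1a cells the differences were 2.80 for entry 92, 2.34 for entry 27, 2.10 for entry 143 (a member only through HL60 cell rPAL), -3.56 for entry 35, -3.49 for entry 34 and -1.74 for entry 12. Between HL60 lEV and HL60 cells they were 3.20 for entry 138, 3.10 for entry 113, 2.60 for entry 130, -3.04 for entry 126, -3.03 for entry 137 and -3.01 for entry 132, which shares a set with entry 126. Between HL60 sEV and HL60 cells they were 3.93 for entry 138, 3.64 for entry 140 (a member only through HL60 cell total RNA), 2.55 for entry 130, -4.61 for entry 53, -4.59 for entry 51 and -4.22 for entry 54. Entry 54 was called in 4 of 12 fits with 1 library left out and entry 130 in sEV in 11 of 12.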

How the results depend on the processing

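Of 84 results for named entries, the TMM factor kept 83 called in the same direction and DESeq2 82. No filter kept 84, the replicate block 83 and the whole table with library totals 61. Named entries were picked for large fold changes, so these counts do not stand for all calls. Of members called by share, the TMM factor kept 42 of 103 in HL60 lEV rPAL, with 16 turning sign. It kept 47 of 97 in KG1a lEV against cells (17 turned) and 47 of 90 in HL60 against KG1a (25 turned). For HL60 minus KG1a it kept 13 of 57 (1 turned). In rPAL of cells it kept 109 of 114 in HL60 and 76 of 83 in KG1a, with 0 turned. The whole table, which measures levels and not shares, reversed 6 differences in enrichment, with the cause not tested: in HL60 lEV minus cells entries 113 (-0.74), 130 (-1.37) and 138 (-0.81), and in HL60 sEV minus cells entries 130 (-1.51), 138 (-0.19) and 140 (-0.49).

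Counts of members called that moved over 1.5-fold were as follows. With the TMM factor, HL60 lEV rPAL gave 62 and the HL60 minus KG1a difference 18. DESeq2 gave 66 in HL60 lEV rPAL, 67 in KG1a sEV rPAL, 33 for HL60 minus KG1a and 41 for HL60 sEV minus cells. The whole table gave 5 in KG1a lEV rPAL, 4 in KG1a sEV rPAL, 32 in HL60 sEV rPAL, 5 for HL60 minus KG1a, 109 for HL60 lEV minus cells and 126 for HL60 sEV minus cells. Counting sets once gave 51 for KG1a sEV against cells and 59 for HL60 against KG1a.

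The replicate number as a block gave 13 in KG1a sEV rPAL and 42 in KG1a sEV against cells, and moved no other count over 1.5-fold. No comparison had every same-number correlation of deviations above 0.1 (range over comparisons -0.33 to 0.35), so the numbers were not taken as pairs, although in HL60 lEV against cells all 3 were above 0 (0.068, 0.32 and 0.32).

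With 1 library left out at a time, counts ranged in rPAL against total RNA from 107 to 117 in HL60 cells, 75 to 87 in KG1a cells, 84 to 100 in HL60 lEV, 58 to 87 in KG1a lEV, 43 to 73 in HL60 sEV and 0 to 55 in KG1a sEV. Against cells they ranged from 79 to 115 in HL60 lEV, 81 to 101 in KG1a lEV, 79 to 99 in HL60 sEV and 66 to 85 in KG1a sEV, for HL60 against KG1a from 67 to 104, and for the differences from 17 to 72 (HL60 minus KG1a), 48 to 71 (HL60 lEV minus cells) and 10 to 42 (HL60 sEV minus cells). A threshold on mean group share in place of summed counts kept 139 of 146 members. The fewest tRNA counts, 181848 and 216898, limit the sEV rPAL groups.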
